A study of Mus musculus with 10 samples.

Results

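The *Hox* genes encode homeodomain transcription factors that give cells along the head-to-tail axis of the embryo their position. They lie in 4 clusters in mammals, and within a cluster the gene number follows the order on the chromosome and, broadly, the axis itself, so that low numbers are used near the head and high numbers near the tail. Genes of the same number in different clusters are paralogues with closely related homeodomains. Adult fat depots keep a *Hox* pattern of the body region from which they arose, and *Hox* expression is therefore used as a mark of depot position.

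Here the *Hox* genes were read in epididymal white adipose tissue (eWAT), the intra-abdominal fat pad that lies along the epididymis. The members were all probes with a *Hox* gene symbol of cluster a, b, c or d and a number, control spots left out. These were 44 of 55681 probes and covered 39 of 34797 gene names, the whole mouse *Hox* set. The probes lay on 62 of 59305 spots, since those of *Hoxa11* and *Hoxb1* were each printed on 10 spots. All 39 symbols were found in the RefSeq gene table (assembly GRCm38.p6).

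The tissue came from 10 mice of 1 group. By the labels they were adult wildtype males of strain C57BL/6J, named C57BL/6JOlaHsd in the treatment text, and 9 weeks old at the start. They were fed a purified low fat diet (BIOCLAIMS) for 3 weeks and the BIOCLAIMS high-fat diet (HFD) for 12 weeks, all at 29°C. They were then injected daily for 5 days with desferrioxamine (DFO), an iron chelator, at 100 mg/kg body weight. Food was removed for 2 hours before decapitation. Each mouse was hybridised on 1 two-colour array, its own RNA in Cy5 against a Cy3 pool of all samples of the wider study, controls included. No untreated mice were analysed here, so no value below is an effect of DFO. Because the dyes were not swapped, a probe's response to the dyes is part of its log2 ratio of Cy5 over Cy3. The ratio was therefore compared between mice and never tested against 0.

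The arrays were even in quality, with a median Cy5 signal of 54.8 to 81.3 over a local background of 32 to 37 and no saturated spot. They lay on 5 slides of 2 arrays. Of all expressed probes, the first principal component of the log2 ratio held 75.1% of the variance and set mice 4, 5, 6 and 7 apart from the other 6 mice, with a gap of 0.513 of its range. These 4 mice are not a group of the study, and the main measures of *Hox* spread are also given without them. Of markers for cell types of the labelled tissue, all 8 adipocyte, 8 stromal, 8 mesothelial, 5 endothelial and 6 macrophage markers were expressed, where 49.9% of all probes were. Of 9 epididymis markers 1 was expressed and 6 were above background on 0 arrays. Among other foreign markers, 3 of 6 sperm genes were expressed, *Prm2* on 10 arrays, *Tnp1* on 9 and *Prm1* on 8. Of 7 motile cilia genes 3 were expressed. The counts of sperm and cilia genes lie near the share of all probes and are not read as a trait of the tissue.

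Each array probe is 60 bases long. Probes of different *Hox* genes shared at most 11 bases in a row and matched at no more than 29 positions without gaps, so the paralogues were measured by distinct sequences. The following probes, given on the mm9 build of the array annotation, lie in coding sequence by their translation and show what the array read on either side of the detection boundary described below. In capitals are 4 codons of the hexapeptide, the short motif that contacts the cofactor Pbx, or codons of the third homeodomain helix, which reads DNA.
*Hoxa6* (chr6:52158194-52158253, minus strand, above background on 10 arrays): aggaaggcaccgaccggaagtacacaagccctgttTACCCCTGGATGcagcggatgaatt
*Hoxc11* (chr15:102787022-102787081, plus strand, 0 arrays): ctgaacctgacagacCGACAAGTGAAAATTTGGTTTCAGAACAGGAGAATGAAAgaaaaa
*Hoxd10* (chr2:74532280-74532339, plus strand, 0 arrays): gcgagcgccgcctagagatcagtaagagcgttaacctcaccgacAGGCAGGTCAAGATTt
The *Hoxa6* probe was above background in every mouse and the *Hoxc11* and *Hoxd10* probes, which cover part of the same helix, in none.

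eWAT of these mice expressed *Hox* genes of numbers 1 to 9 and none of numbers 10 to 13. A probe counted as expressed where the scanner software marked its Cy5 spot as well above background on 5 arrays or more, which held for 27804 of 55681 probes on the array (49.9%). By this rule 24 of 44 *Hox* probes and 23 of 39 *Hox* genes were expressed. On all 10 arrays, 21 *Hox* probes of 20 genes were above background, where the share over all probes was 41.9%. No probe was above background on any array for 13 genes, and 38.6% of all probes were so.

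In each of the 4 clusters the last expressed gene was number 9. Of 27 genes numbered 1 to 9, 23 were expressed, and of 300 readings (30 probes on 10 arrays) 243 were well above background. Of 12 genes numbered 10 to 13, 0 were expressed, and of 140 readings (14 probes on 10 arrays) 1 was above background. That reading was *Hoxa10* in mouse 2, a gene known for patterning the male and female reproductive ducts. The raw Cy5 signals of these 14 probes, at 28.0 to 67.2, stayed near the background. In the Cy3 pool, 230 of the 300 and 1 of the 140 readings were above background, so the pool showed the same boundary. The 12 genes were *Hoxa10*, *Hoxa11*, *Hoxa13*, *Hoxb13*, *Hoxc10* to *Hoxc13* and *Hoxd10* to *Hoxd13*, which are known for limb, kidney, urogenital and tail development. A signal that is not above background gives an upper bound for this array and does not show that the transcript is missing.

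**Figure D1:**
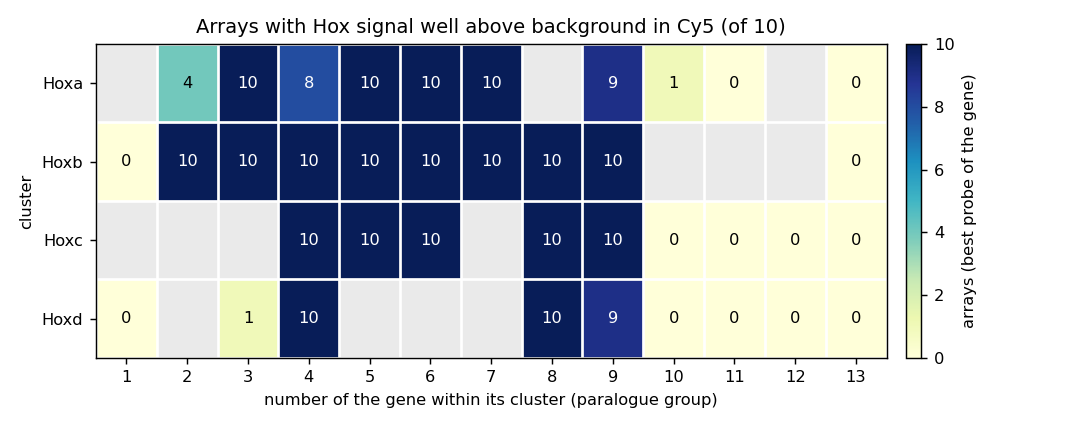
Number of arrays, of 10, on which the best probe of each *Hox* gene shown was well above background in Cy5, with the cluster on the y axis and the gene number on the x axis. Grey squares are numbers that the mouse cluster does not hold or that are not shown. Squares of numbers 4 to 9 hold 8 to 10 arrays and squares of numbers 10 to 13 hold 0 or 1.

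The central genes, numbers 4 to 8, were all expressed: 15 of 15, and 14 of them on all 10 arrays. The exception was *Hoxa4*, above background on 8 arrays in Cy5 and on 1 in the pool, with raw signals of 59.2 to 99.3. All 4 number 9 genes were expressed, *Hoxb9* and *Hoxc9* on 10 arrays and *Hoxa9* and *Hoxd9* on 9. *Hoxa9*, *Hoxb9* and *Hoxd9* act together in mammary gland development. The anterior genes, numbers 1 to 3, were mixed. *Hoxa3*, *Hoxb2* and *Hoxb3* were above background on 10 arrays. *Hoxb1* and *Hoxd1*, which act in the hindbrain and in sensory neurons, were above background on 0 arrays, *Hoxd3* on 1 (mouse 2) and *Hoxa2*, a gene of the second pharyngeal arch, on 4 (mice 2, 6, 9 and 10). By cluster, 7 of 11 genes were expressed in *Hoxa* (chromosome 6), 8 of 10 in *Hoxb* (chromosome 11), 5 of 9 in *Hoxc* (chromosome 15) and 3 of 9 in *Hoxd* (chromosome 2). On mm9 the probes of *Hoxb*, *Hoxc* and *Hoxd* span chr11:96057854-96228510, chr15:102759058-102867272 and chr2:74509248-74603059.

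Probes of the same gene did not always give the same call. For *Hoxa9*, 1 probe was above background on 9 arrays and the other, 1430 bases away, on 2. Both *Hoxb3* probes, 1888 bases apart, were above background on 10 arrays, and with all 10 mice their log2 ratios differed in spread (SD 0.50 and 0.27). They also differed for mouse 2, which was at -0.06 with 1 probe and at 0.56, the highest of the 10 mice, with the other. When every probe of a gene had to be expressed, 21 genes in place of 23 were counted.

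The expressed *Hox* genes varied between the mice far more than the same probes varied in the pool. Cy5 carried a different mouse on each array and Cy3 the same pool, so the SD of log2 Cy3 over arrays measures array noise. Any noise from preparing the RNA of each mouse is part of the Cy5 spread and is not measured by Cy3. Cy5 varied more than Cy3 for 22 of 23 *Hox* probes that were above background in both channels on at least 5 arrays (Pitman-Morgan test of paired variances, two-sided, Benjamini-Hochberg adjusted over 25044 probes). Cy5 varied less for 0 of the 23. Over all 25044 probes the shares were 59.6% for more and 0.164% for less. The exception was *Hoxa9*, with an SD of 0.13 in Cy5 and 0.11 in Cy3 (adjusted p = 0.792). The SD of Cy3 lay between 0.03 and 0.11 for the *Hox* probes. Without normalization between arrays the test called 13 of the 23 *Hox* probes, and 4683 of all 25044 probes.

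The SD of the log2 ratio over the 10 mice had a median of 0.50 over 24 *Hox* probes and of 0.18 over 27711 expressed probes. An SD of at least 0.5 was reached by 12 of 24 *Hox* probes and by 9.96% of all expressed probes. By cluster, the median SD was 0.24 over 7 *Hoxa* probes, 0.50 over 9 *Hoxb* probes, 0.61 over 5 *Hoxc* probes and 0.42 over 3 *Hoxd* probes. The probes also differed in signal, with a median raw Cy5 of 70.0 for *Hoxa4*, 78.5 for *Hoxa9*, 75.5 for *Hoxb9* and 1928 for *Hoxc6*. The difference between clusters and the part of signal in it were not tested.

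**Figure D2:**
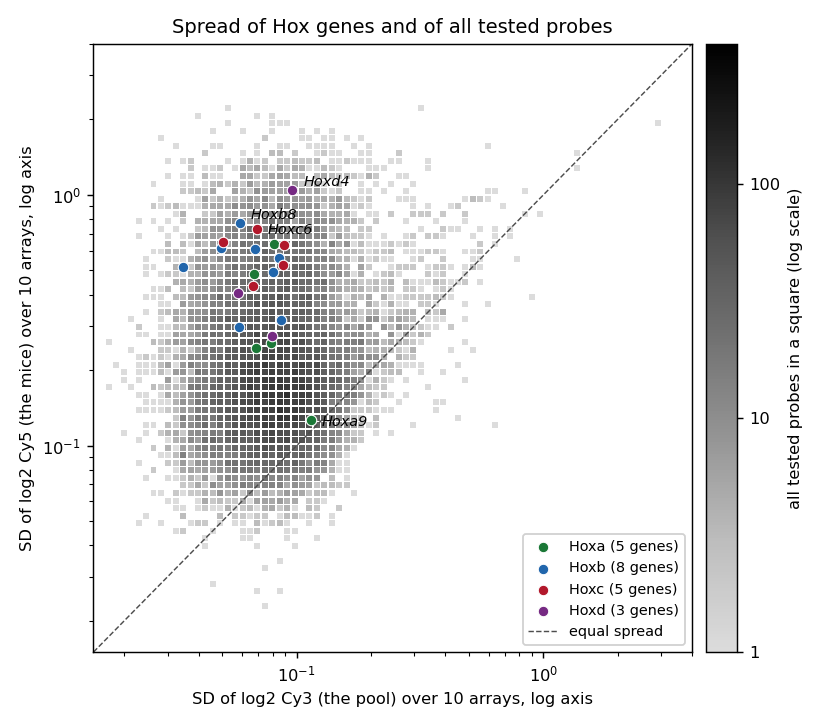
SD over 10 arrays of log2 Cy3 (x axis, the pool) and log2 Cy5 (y axis, the mice) for 21 *Hox* genes, coloured points, and for all 25044 tested probes, grey squares shaded by the number of probes. Both axes are logarithmic. All points but *Hoxa9* lie well above the dashed line of equal spread.

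*Hoxd4*, a gene of the hindbrain and neck region, varied most, with log2 ratios from -1.83 in mouse 7 over a median of 0.01 to 0.78 in mouse 2. This is a 6.10-fold range (SD 1.01, n = 10, adjusted p = 2.56e-06 for Cy5 against Cy3). Mice 4 to 7 lay between -1.83 and -1.46 and the other 6 between -0.10 and 0.78, so that no value fell between. The other expressed *Hoxd* genes were narrower, *Hoxd8* with an SD of 0.42 and a range of -0.72 to 0.46, and *Hoxd9* with an SD of 0.21.

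In the *Hoxc* cluster, known for the neck, trunk and brachial levels, all 5 expressed genes varied. *Hoxc6*, a gene of the thoracic region, ran from -1.55 in mouse 4 over a median of -0.26 to 0.20 in mouse 9 (SD 0.75). *Hoxc4* ran from -1.01 in mouse 4 over 0.09 to 0.56 in mouse 10 (SD 0.65). *Hoxc5* ran from -1.23 in mouse 7 over -0.27 to 0.38 in mouse 9 (SD 0.61). In each of these genes mice 4 to 7 held the 4 lowest values, with a gap of 0.70 to 0.89 on the log2 scale below the next mouse. *Hoxc8*, which sets vertebral identity in the trunk and is known to hold back brown adipocyte formation, ran from -1.08 in mouse 7 over -0.08 to 0.31 in mouse 9 (SD 0.50). *Hoxc9*, which organises thoracic motor neurons, ran from -0.85 in mouse 7 over -0.04 to 0.38 in mouse 8 (SD 0.43). Their 4 lowest values were again those of mice 4 to 7, with narrower gaps of 0.24 and 0.21.

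In the *Hoxb* cluster, the numbers 6 to 9 showed 2 features, the low values of mice 4 to 7 and a high value of mouse 2. In each, mice 4 to 7 were the lowest. Their gap below the next mouse was 0.71 for *Hoxb8* and 0.47 for *Hoxb6*, but only 0.09 for *Hoxb9* and 0.05 for *Hoxb7*. *Hoxb8*, active in blood cell progenitors and known from mutant mice for grooming behaviour, ran from -1.64 in mouse 7 over a median of -0.44 to 0.84 in mouse 2 (SD 0.79). *Hoxb9*, a gene of the rib-bearing trunk, ran from -0.65 in mouse 5 over -0.32 to 1.37 in mouse 2 (SD 0.58). *Hoxb6*, a gene of the lateral plate mesoderm, ran from -0.63 in mouse 6 over -0.04 to 1.10 in mouse 2 (SD 0.52). *Hoxb7*, expressed in the duct that gives rise to epididymis and kidney collecting system, ran from -0.76 in mouse 7 over -0.27 to 0.87 in mouse 2 (SD 0.49).

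In the lower numbers of the *Hoxb* cluster, mouse 2 ranked from the highest to below 5 other mice and was not set as far apart. *Hoxb5*, which positions the shoulder girdle, ran from -1.04 in mouse 7 over 0.01 to 0.36 in mouse 10 (SD 0.58), and mouse 2 ranked 4 from the top. *Hoxb3*, by its brighter probe, ran from -0.77 in mouse 7 over 0.04 to 0.52 in mouse 3 (SD 0.50), and mouse 2, at -0.06, ranked 6 by this probe and highest by the other. *Hoxb4*, which promotes self-renewal of blood stem cells, and *Hoxb2* had SDs of 0.33 each. In both, mouse 2 was highest, by 0.05 and 0.23 over the next mouse.

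In the *Hoxa* cluster 2 genes spread widely and the others little. *Hoxa7*, a gene of the trunk vertebrae, ran from -1.17 in mouse 7 over -0.15 to 0.39 in mouse 9 (SD 0.60). *Hoxa3*, which is needed for the thymus and parathyroid glands, ran from -1.07 in mouse 4 over -0.18 to 0.48 in mouse 2 (SD 0.50). In both, mice 4 to 7 were the 4 lowest and did not overlap with the rest. *Hoxa5*, a gene of the lung and the neck-to-trunk border, and *Hoxa6* had SDs of 0.27 and 0.23, and *Hoxa4* and *Hoxa9* of 0.15 and 0.12.

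**Figure D3:**
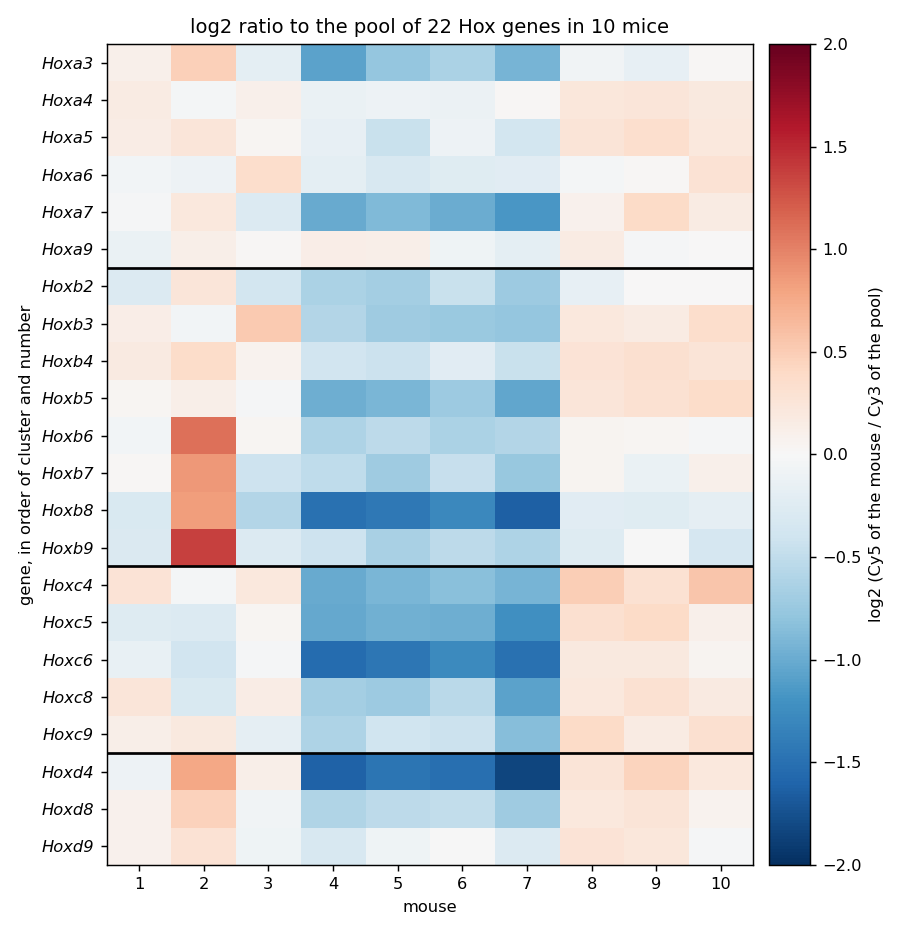
Log2 ratio of each mouse (columns) to the Cy3 pool for 22 expressed *Hox* genes (rows, 1 probe per gene, in cluster order), on a colour scale from -2 to 2. Mice 4 to 7 form a blue block in most rows, with the deepest values in *Hoxd4*, *Hoxb8* and *Hoxc6*, and mouse 2 is red for *Hoxb6* to *Hoxb9*.

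Mice 4 to 7 together held the 4 lowest log2 ratios for 20 of the 23 expressed *Hox* genes (21 of 24 probes) and the 4 highest for 0. Among all 27711 expressed probes, these mice held the 4 lowest values for 21.3% and the 4 highest for 17.9%. *Hoxa4*, *Hoxa9* and *Hoxd9*, the genes above background on only 8 or 9 arrays, were the exceptions. The median over the 23 genes was -0.76 to -0.52 in these 4 mice and 0.03 to 0.21 in the other 6. By cluster it reached -1.08 to -0.84 in *Hoxc*, -0.75 to -0.58 in *Hoxb*, -0.72 to -0.49 in *Hoxd* and -0.45 to -0.20 in *Hoxa* in these 4 mice. Mice 4 to 7 lay on 3 of the 5 slides, 2 of which they shared with mice 3 and 8.

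Other transcripts moved with this pattern. The mean log2 ratio of 8 adipocyte markers was -2.41 to -1.35 in mice 4 to 7 and -0.15 to 0.65 in the others. That of 8 mesothelium markers was -1.55 to -1.11 against -0.57 to 0.27, and that of 5 endothelium markers -0.84 to -0.55 against -0.16 to 0.22. That of 6 macrophage markers was higher in mice 4 to 7, at 0.45 to 0.66 against -0.53 to 0.02. That of 8 stromal markers overlapped, at -0.25 to 0.04 against -0.27 to 0.18, but its members parted these mice in opposite directions. *Lum* was 0.61 to 0.91 in mice 4 to 7 and at most 0.22 in the others, and *Col1a1* 0.47 to 0.66 and at most -0.01. *Dpp4* was -0.99 to -0.57 in mice 4 to 7 and at least -0.11 in the others, and *Cd34* -0.93 to -0.57 and at least -0.08. In the macrophage list *Cd163* went the other way, at -0.28 to -0.11 in mice 4 to 7 and 0.15 to 0.60 in the others. In the endothelium list *Kdr* overlapped, at 0.01 to 0.19 in mice 4 to 7 and -0.16 to 0.68 in the others. Members of the mesothelium list such as *Wt1* overlapped too, at -0.72 to -0.10 and -0.49 to 0.73. Every marker of these 5 lists was expressed. In bulk tissue, fewer cells of a type and less RNA per cell cannot be told apart, and the part of cell content in the *Hox* values was not tested.

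**Figure D4:**
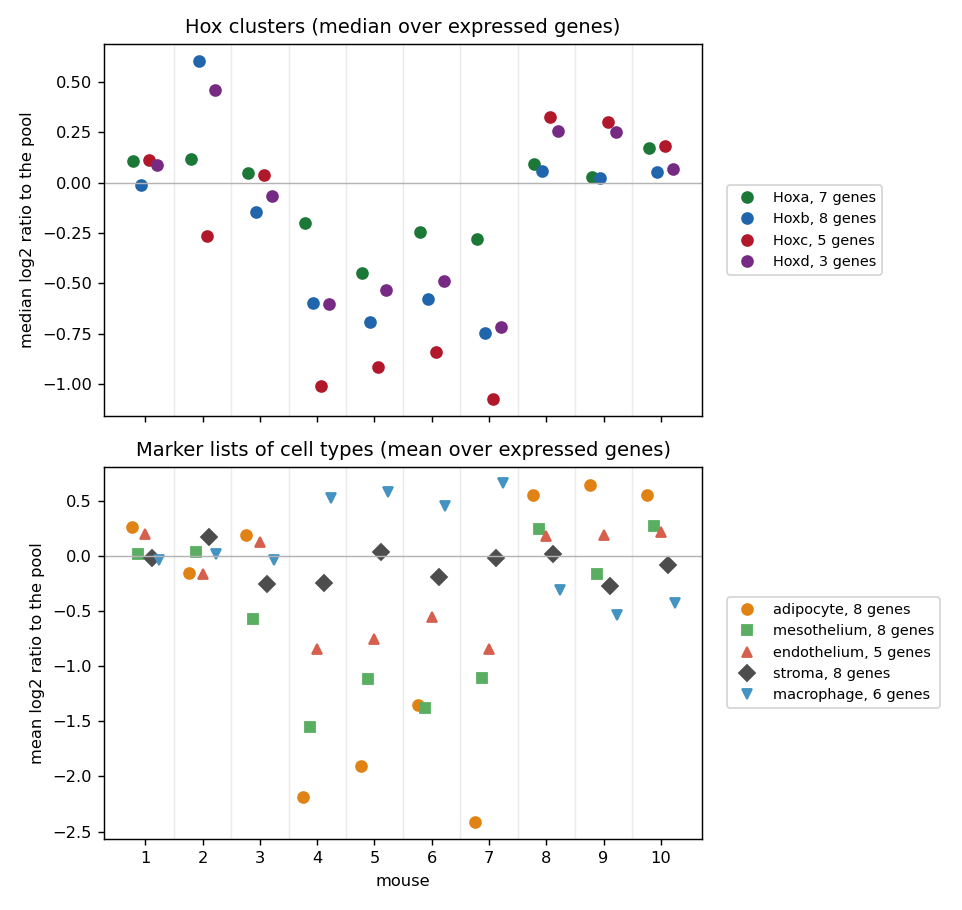
Upper panel, median log2 ratio to the pool over the expressed genes of each *Hox* cluster for each of the 10 mice. Lower panel, mean log2 ratio of 5 marker lists in the same mice, where mice 4 to 7 are low for adipocyte, mesothelium and endothelium markers, high for macrophage markers and overlap with the others in the stromal mean.

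Without mice 4 to 7 the *Hox* genes varied less. Over the other 6 mice the median SD was 0.21 over 24 *Hox* probes and 0.14 over all expressed probes, and 1 *Hox* probe (4.17%) had an SD of at least 0.5 against 1.92% of all. The SD of *Hoxd4* fell from 1.01 to 0.30 and that of *Hoxc6* from 0.75 to 0.22, while that of *Hoxb9* was 0.58 over 10 mice and 0.66 over 6. Over these 6 mice, Cy5 varied more than Cy3 for 8 of 23 *Hox* probes, where 13.7% of all tested probes did so. The 8 probes were those of *Hoxb5* to *Hoxb9*, *Hoxc4*, *Hoxc8* and 1 of the 2 *Hoxb3* probes. Within mice 4 to 7 the median SD was 0.12 over *Hox* probes and 0.11 over all.

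Mouse 2 stood above all other mice at *Hoxb6* to *Hoxb9*. Its log2 ratio was above the next mouse by 1.37 for *Hoxb9*, by 1.04 for *Hoxb6*, by 1.02 for *Hoxb8* and by 0.77 for *Hoxb7*, or 2.59-fold, 2.05-fold, 2.03-fold and 1.71-fold. Without mouse 2 the SD of *Hoxb9* fell from 0.58 to 0.20 and that of *Hoxb6* from 0.52 to 0.32. The raw Cy5 signal of *Hoxb9* reached 440 at its highest, over a median of 75.5. The same mouse was the highest for 10 of 23 genes, all 3 *Hoxd* genes included. In *Hoxc* its median was -0.27, below the 0.04 to 0.33 of mice 1, 3, 8, 9 and 10. Single genes departed from these medians, since mouse 2 ranked 3 from the top for *Hoxc9*, at 0.20, and 6 for *Hoxb3*.

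Markers of other tissues and of epithelia were also high in mouse 2. The mean log2 ratio of the 3 expressed motile cilia genes, of 7 listed, was 1.23 in mouse 2 and -1.07 to -0.35 in the other 9. That of the 3 expressed sperm genes, of 6 listed, was -1.02 against -2.79 to -2.10. The keratins of the mesothelium list were high in mouse 2, *Krt8* at 1.91 against at most -0.23 in the other mice, *Krt18* at 1.85 against at most 0.16 and *Krt19* at 0.65 against at most 0.22. The other 5 members of that list, *Msln*, *Upk3b*, *Upk1b*, *Wt1* and *Lrrn4*, were at -0.98 to -0.49 in mouse 2. Of the epididymis list only *Lcn12* was expressed, with -0.09 in mouse 2 and -0.21 to 0.40 over all mice. *Adam7*, above background on 1 array, was at -0.11 in mouse 2 and at -1.01 to -0.63 in the others. The array of mouse 2 also had the most probes well above background in Cy5, 30523 against 24932 to 28664. The part of any of these in the *Hoxb* values was not tested.

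To ask whether genes that lie side by side or share a number varied together, 42 pairs of expressed *Hox* genes were compared, 19 neighbours and 23 paralogues. For 35 pairs the mice fell into separate clusters and r was taken over mice 1, 2, 3, 8, 9 and 10 only, and for 7 pairs over all 10. By permutation 0 of 42 pairs passed the adjusted threshold for r or for Spearman's rho, and 10 had an unadjusted p under 0.05 for r. A pair with rho = 1.0 over 6 mice still had an adjusted permutation p of 0.102, so the number of mice limits what can pass. The 0 therefore does not show that neighbours or paralogues vary independently. The median r was 0.32 over the 42 pairs, with 26 above 0 and 16 below. The smallest two-sided p that all permutations of 6 mice can give is 0.00278 for rho without ties. For r it can be lower, since *Hoxc5* and *Hoxc6* reached an exact permutation p of 0.00139 with the scanner log ratio.

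The pairs with the smallest p were neighbours and paralogues of the *Hoxc* cluster. *Hoxc8* and *Hoxc9* had r = 0.88 over 10 mice (permutation p = 0.00241, adjusted p = 0.0583, rho = 0.75 with permutation p = 0.017 and adjusted p = 0.102). Within the 6 mice r was 0.01, so this relation rested on mice 4 to 7. *Hoxc9* and *Hoxd9* had r = 0.85 over 10 mice (permutation p = 0.0029, adjusted p = 0.0583, rho = 0.78 with permutation p = 0.011 and adjusted p = 0.102), and r = 0.56 within the 6. *Hoxc5* and *Hoxc6* had r = 0.94 over 6 mice (exact permutation p = 0.00417, adjusted p = 0.0583, rho = 1.0 with exact permutation p = 0.00278 and adjusted p = 0.102). With the 2 mice farthest from the median left out it was 0.99. *Hoxb7* and *Hoxb8* had r = 0.98 over 6 mice (exact permutation p = 0.00972, adjusted p = 0.0933, rho = 0.94 with exact permutation p = 0.0167 and adjusted p = 0.102), which became 0.33 without those 2 mice. The slide, as the only known batch, was tested with a moderated F test in limma, which called 0 of 24 *Hox* probes, adjusted or at an unadjusted p under 0.05. Of all 27711 probes 0 (0.0%) passed adjusted and 4.1% had an unadjusted p under 0.05. On simulated data this test recovered 3 of 100 probes with a slide effect of 2 SDs and 33 of 100 with 4 SDs. With 2 arrays per slide it misses most slide effects, so its 0 calls say little about the slides.

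Most factors that work with *Hox* proteins or keep their clusters on or off were expressed, where 49.9% of all probes were. The median SD of each list was below the 0.50 of the *Hox* probes. Of 9 genes of the Pbx, Meis and Pknox families, which bind DNA together with *Hox* proteins, 8 were expressed and *Pbx4* was above background on 0 arrays. Cy5 varied more than Cy3 for 6 of 8, where 59.6% of all tested probes did so, with a median SD of 0.22, from 0.10 for *Pknox1* to 0.37 for *Meis2*. All 16 Polycomb genes, whose complexes silence *Hox* clusters, were expressed, 11 of 16 varied more in Cy5, and their median SD was 0.18, with the smallest SD, 0.09, for *Ring1*. All 7 Trithorax and H3K27 demethylase genes, which oppose them, were expressed, 4 of 6 tested varied more, and their median SD was 0.15, from 0.09 for *Kdm6a* to 0.52 for *Kdm6b*. The shares of called Polycomb and Trithorax genes lie near that of all tested probes. The mean log2 ratio of the expressed cofactors stayed between -0.08 and 0.08 in all 10 mice and that of the Polycomb genes between -0.13 and 0.11. These means hide opposite members. *Meis1* and *Meis2* were at -0.61 to -0.24 in mice 4 to 7, their 4 lowest values, and *Meis3* was at 0.32 to 0.48 in these mice, its 4 highest. In the Polycomb list *Ezh1* was at -0.39 to -0.12 in these mice, its 4 lowest values, and *Ezh2* at 0.31 to 0.70, its 4 highest. In the Trithorax and demethylase list *Kdm6b* was at -0.84 to -0.58 in these mice, its 4 lowest values, and *Rbbp5* at 0.39 to 0.53, its 4 highest.

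Genes known to mark depot position were read beside the *Hox* genes. Of 4 genes known for higher expression in subcutaneous fat, *Tbx15*, *Shox2* and *En1* were above background on 0 arrays, and *Sfrp2*, a secreted Wnt modulator also made by stromal cells, was expressed on 10 with an SD of 0.69. Of 6 genes known for intra-abdominal fat, *Nr2f1*, *Gpc4*, *Thbd*, *Tcf21*, *Wt1* and *Bnc1*, all 6 were expressed, as were 49.9% of all probes, and all 6 varied more in Cy5 than in Cy3, as did 59.6% of all tested probes, with a median SD of 0.40, from 0.25 for *Nr2f1* to 0.74 for *Gpc4*. The mean log2 ratio of these 6 genes was -0.60 to -0.43 in mice 4 to 7 and -0.31 to 0.25 in the others. *Gpc4* parted the mice, at -1.51 to -0.73 against 0.09 to 0.52, and the other members overlapped. *Nr2f1* was at -0.36 to 0.17 in mice 4 to 7 and at -0.60 to 0.27 in the others. The low values were not particular to this list, since *Sfrp2* was at -0.90 to -0.16 in mice 4 to 7 and at 0.18 to 0.95 in the others. *Wt1* is also a mesothelium marker. The ParaHox genes, the sister family known from gut and pancreas, had 0 of 6 expressed, with *Pdx1* above background on 1 array and the others on 0. Of the 2 genes that flank the clusters, *Evx2* was expressed, with an SD of 0.13, and *Evx1* was not. No subcutaneous depot was analysed here, so the pattern is a description of eWAT in these mice.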

How the data were processed

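The authors deposited 1 scanner file per array with the intensity of spots and local background in both dyes and a log10 ratio (Agilent Feature Extraction 10.7.3.1 per the labels), and a table of normalized log2 values for 30733 spots, whose method is not given in the sources used here and which served as an alternative. From the intensity values, mean signals were corrected with normexp (offset 50) and normalized by loess within arrays and Aquantile between arrays (limma 3.58.1, R 4.3.3). Control and outlier spots (at most 0.58% per array) were left out, and spots of a probe were averaged. Probes above background in Cy5 on at least 5 arrays were kept (27711 with a value on every array). With several probes, the one with the highest mean signal stood for its gene. Mice counted as parted on a gene where the largest gap reached 0.4 of the range or separated the mice of the first component. Permutations numbered 100000 over 10 mice and were complete over 6. The 14 genes with the largest SD on all arrays were described by lowest, median and highest value. On simulated data the variance test recovered 78 of 100 probes with a 6-fold SD and 13 of 100 with a 3-fold SD among 25132. The members and lists were chosen with earlier results of these data known. Array number and the margin over background limit the precision. Some genes and a probe sequence are not reported here. Python 3.11.15 was used otherwise.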

Additional observations from a re-analysis of the deposited data

Results flagged for a closer look

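Of 23 expressed *Hox* genes, 3 had a mouse far from the other 9 (its gap to the next mouse, as a share of the whole range, was above Dixon's critical value for 10 samples, which chance gives in about 1 in 20 groups). Mouse 2 was highest in each of them. Its gap was 0.679 of the range for *Hoxb9* (1.37 against -0.00 for the next mouse), 0.599 for *Hoxb6* (1.10 against 0.06) and 0.470 for *Hoxb7* (0.87 against 0.10). For *Hoxb8*, between *Hoxb7* and *Hoxb9* on the chromosome, it was 0.412, under that limit. Genes of 1 cluster in 1 mouse are not independent of each other. The share of all expressed probes with such a mouse is not given here, so the 3 genes are not read as particular to *Hox*.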

How the results depend on the processing

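No paired analysis was possible because the series holds 1 group. The count of expressed *Hox* genes was 23 and lay between 20 and 26 under the other rules, and that of probes was 24 and lay between 21 and 28. For numbers 10 to 13, asking for 1 array or using the looser flag of the scanner software gave 1 probe in place of 0 (*Hoxa10* and *Hoxc12*). The count of 22 *Hox* probes with more variance in Cy5 was 13 without normalization between arrays and 8 over the 6 mice 1, 2, 3, 8, 9 and 10 (an alternative chosen after seeing the data). It was 19 to 24 under the other settings and 21 to 22 with each mouse left out. In place of 0 pairs, 3 passed with the scanner log ratio and 3 with median centring, and 0 to 1 with each mouse left out (1 without mouse 2, *Hoxc8* and *Hoxc9*, and 1 without mouse 10, *Hoxc9* and *Hoxd9*). Without the 2 mice farthest from the median r became -0.0925 for *Hoxc6* and *Hoxc8* and -0.065 for *Hoxb8* and *Hoxd8*. No probe passed the slide test under any setting, but the test had little power to find slide effects. At an unadjusted p under 0.05 limma called 0 *Hox* probes, 1 with the deposited values and 8 with median centring. The shares of all probes called with the deposited values and with median centring are not given here. These counts are therefore not read as particular to *Hox* genes. The SD rose by over 1.5 times for 8 of 23 genes with the scanner log ratio and for 4 with the deposited values, and was smaller by over 1.5 times for 15 over the 6 mice. With median centring in place of loess, the median over all expressed probes of the log2 ratio was 0.32 in place of 0.00, so the sign of a mouse's ratio depends on the scaling. The cause of these changes was not tested.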

Other observations

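The clusters also hold probes that are not named for a *Hox* gene, 39 in all, of which 16 were expressed, where 49.9% of all probes were. The largest SD of these, 0.93, belonged to AI448005, between *Hoxd4* and *Hoxd3*, with log2 ratios from -1.94 in mouse 7 to 0.77 in mouse 2, the same lowest and highest mouse as for *Hoxd4*. The probe of 2700086A05Rik, between *Hoxa6* and *Hoxa7*, had an SD of 0.44. Of the long noncoding RNA probes, 1 of 5 HOTAIR probes, between *Hoxc12* and *Hoxc11*, was above background on 10 arrays, with an SD of 0.14 over the mice, and the others were not expressed. *Hoxa11as* was above background on 2 arrays.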
